A study of Mus musculus with 6 samples.

Results

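Merkel cells are touch receptor cells of the skin that arise from the epidermal lineage, and the genes described here are 10 of the factors and effectors that mark them. The 10 were chosen by gene symbol: Atoh1, Sox2, Isl1, Gfi1, Pou4f3, Prox1, Insm1, Rab3c, Cplx2 and Piezo2. All 10 were among the 24453 symbols counted in each of 6 RNA sequencing libraries. The libraries were made from sorted hair follicle cells of mouse back skin at postnatal day 0, 3 from animals labelled only as control and 3 from Ring1a-/- Ring1b-/I53A mutants. Ring1a and Ring1b, encoded by Ring1 and Rnf2, are the ubiquitin ligases of Polycomb repressive complex 1, and I53A is a substitution in Ring1b known to cripple its ubiquitin transfer to histones. No group separates loss of Ring1a from the null and I53A alleles of Ring1b, and the labels name no promoter or Cre line.

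Atoh1 is required for Merkel cells to form, Sox2 and Isl1 act with it, and the mature cell carries the touch channel Piezo2 and machinery for releasing vesicles onto sensory nerve endings. Merkel cells cluster around the touch domes and guard hairs of the coat, so a preparation of follicle cells can hold a few of them. In mouse skin, Polycomb complexes are known to hold the Merkel cell programme silent in epidermal progenitors, and loss of Polycomb repressive complex 2 from the epidermis is known to give extra Merkel cells. The comparison asks whether follicle cells with impaired Ring1 proteins transcribed this programme.

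Of the 10 genes, 5 passed the filter on low counts and were tested. Of these, the complexin gene Cplx2 was called higher in the mutants and none was called lower. Over all tested genes, 2.59% were called higher and 0.404% lower. The Cplx2 call held in 3 of 6 fits that left out 1 library each. Sox2, Isl1, Gfi1 and Pou4f3 were not tested. Among tested factors that specify Merkel cells, none was called by the main test. Atoh1 had 134 reads in all controls together and 95 in all mutants. Reads of Sox2, Isl1, Pou4f3, Rab3c and the Merkel keratin gene Krt20 came, among controls, almost wholly from 1 library. They summed to 255 reads in control 3 and 5 and 9 in the other controls, against 18 to 31 in each mutant. These 5 genes were put together with their values known. Gfi1, not in that sum, had 1, 0 and 14 reads in controls 1 to 3 and 24, 5 and 8 in mutants 1 to 3. Prox1 was higher and Insm1 lower in every mutant library than in any control library, and neither passed the main test over all genes. Such separation was seen for 12.1% (higher) and 9.15% (lower) of all tested genes. DESeq2, an alternative test, called Insm1 lower (adjusted p = 0.0423).

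Library totals ran from 14335156 to 18811587 counts, so 1 CPM (counts scaled to the effective library size) was 14.7 to 18.2 reads. A count of 0 allows up to 3 reads, or 0.164 to 0.204 CPM. Such limits, and the 95% intervals on ratios of reads below, cover counting error only, because reads were amplified without molecular identifiers. The quasi-likelihood test of edgeR was run over the 14345 genes that passed its filter on low counts. A gene was called at a Benjamini-Hochberg adjusted p under 0.05. This test called 430 genes (3%), 372 upward (2.59%) and 58 downward (0.404%). Ring1, which the genotype removes, fell from 20.01 ± 2.80 to 5.07 ± 1.94 CPM (SD, n = 3 each, edgeR adjusted p = 0.0113), while Rnf2 was at 59.8 and 67.1 CPM. Markers listed for follicle epithelium were high throughout, with Krt5 at 7911 and 9845 CPM in controls and mutants. Markers listed for interfollicular epidermis were mixed. Ly6a (Sca1) was at 0.852 and 1.23 CPM, Ivl at 0.777 and 1.70 CPM and Lor at 4.07 and 6.35 CPM. Krt1 was at 3358 and 2126 CPM and Krt10 at 1357 and 982 CPM. The part of interfollicular cells in the libraries was not tested. The labels call the cells hair follicle, while the sorting protocol describes a Sca1-positive epidermal gate. The labels do not say whether the libraries of a group came from separate animals, so the p-values measure the spread between these libraries, which may be partly technical.

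Merkel cell markers were scarce. The summed level of 10 of them (Atoh1, Sox2, Isl1, Krt8, Krt18, Krt20, Piezo2, Rab3c, Chga and Cck) was 25.4, 19.9 and 59.6 CPM in controls 1 to 3 and 31.8, 35.3 and 55.0 CPM in mutants 1 to 3. Piezo2 was the most abundant of these by group mean, and Krt18 made up much of the sum in mutant 3. In bulk samples, a smaller number of Merkel cells and less RNA in each cannot be told apart.

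CpG-rich promoters are the usual landing sites of Polycomb repressive complex 1, and the promoters of Atoh1, Sox2 and Prox1 are printed here to show that feature. The windows are the 250 bases before the RefSeq start (GRCm38.p6), read 5′ to 3′ on the strand of the gene, with every CpG in capitals. Atoh1 lies at chr6:64728875-64729124 on the plus strand, Sox2 at chr3:34649745-34649994 on the plus strand and Prox1 at chr1:190170828-190171077 on the minus strand.
Atoh1: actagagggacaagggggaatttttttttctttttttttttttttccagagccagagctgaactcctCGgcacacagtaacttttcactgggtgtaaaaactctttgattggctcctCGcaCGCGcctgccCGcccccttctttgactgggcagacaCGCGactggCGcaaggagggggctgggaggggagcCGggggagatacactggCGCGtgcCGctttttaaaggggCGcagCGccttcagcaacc
Sox2: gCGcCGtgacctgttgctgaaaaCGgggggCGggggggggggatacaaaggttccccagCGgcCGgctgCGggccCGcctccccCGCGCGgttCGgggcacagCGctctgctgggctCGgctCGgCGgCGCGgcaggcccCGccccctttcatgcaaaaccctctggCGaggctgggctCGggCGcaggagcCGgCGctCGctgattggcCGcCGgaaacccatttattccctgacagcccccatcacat
Prox1: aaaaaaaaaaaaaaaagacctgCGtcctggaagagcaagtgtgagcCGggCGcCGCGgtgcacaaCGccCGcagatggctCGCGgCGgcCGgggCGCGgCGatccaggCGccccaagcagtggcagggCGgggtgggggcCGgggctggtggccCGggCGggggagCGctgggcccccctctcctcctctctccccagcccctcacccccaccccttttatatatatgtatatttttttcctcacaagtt
Over all 32851 promoter windows of the RefSeq table, the median was 6 CpGs per 250 bases. The Atoh1 window held 14, more than 70.6% of windows, the Sox2 window 27 (more than 91.4%) and the printed Prox1 window, that of the more upstream start, 20 (more than 82.05%). A second Prox1 start in the table had 11 CpGs (more than 64.4%). Isl1 held the highest number among the members with an entry, 33 CpGs, or more than 95.97% of windows. The Cplx2 window, at 7 CpGs, was close to the median, and it lies 68793 bases upstream of the start of the GENCODE gene model. Of the 10 members 7 had an entry in this table, and Pou4f3, Insm1 and Piezo2 had none. The E-box CAGCTG, which reads the same on both strands, was present once in the windows of Isl1, Rab3c and Cplx2 and in 13% of all windows. These are descriptions of the sequence and show nothing about binding in these cells.

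**Figure D1:**
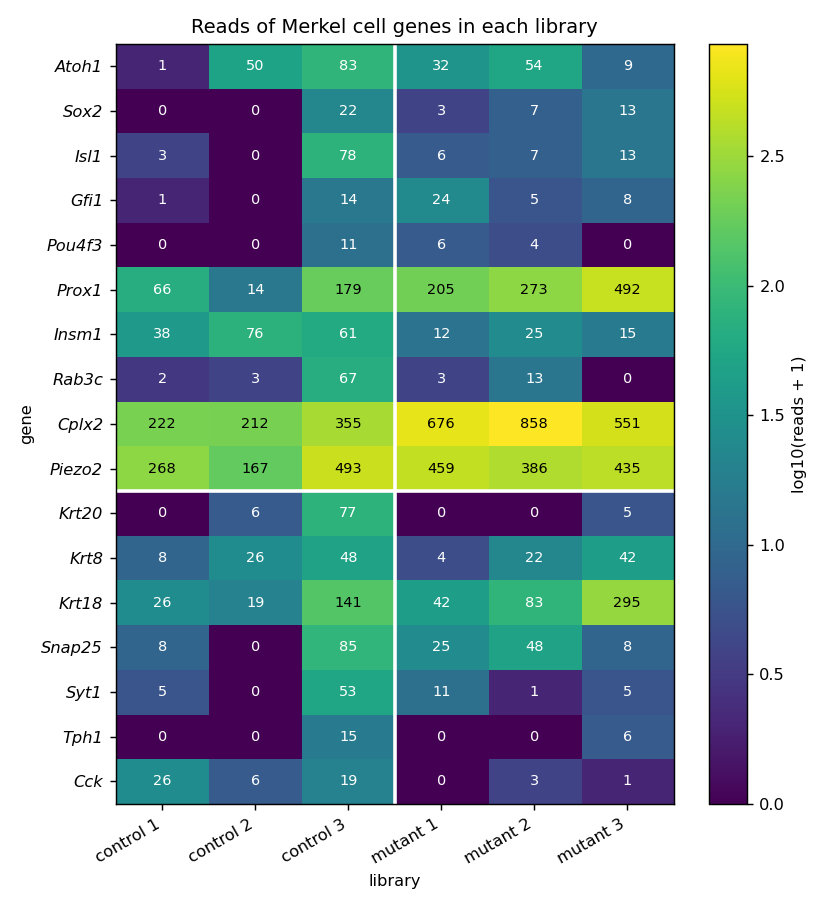
Reads of the 10 Merkel cell genes (above the white line) and 7 further Merkel cell genes (below it) in each of the 6 libraries. The number in each cell is the raw read count, and the colour gives log10(reads + 1). The column of control 3 stands out from those of controls 1 and 2 for Sox2, Isl1, Gfi1, Pou4f3, Rab3c, Krt20, Snap25, Syt1 and Tph1.

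Atoh1 (chromosome 6, 64729125 to 64731245, plus strand, GRCm38) encodes the basic helix-loop-helix factor that specifies Merkel cells. It had 1, 50 and 83 reads in controls 1 to 3 and 32, 54 and 9 reads in mutants 1 to 3. Both groups held low and high libraries, and they overlapped fully. The levels were 2.64 ± 2.36 and 1.86 ± 1.31 CPM (SD, n = 3 each). The fitted log2 fold change was -0.51 with a standard error (SE) of 1.02 (edgeR adjusted p = 0.885). The sign was not stable, at 0.21 without control 3 and 0.027 with the replicate number as a block, and the gene was called in neither fit.

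Sox2 (chromosome 3, 34650405 to 34652461), an HMG-box factor that is active in Merkel cells and also in the dermal papilla of some hair types, had 0, 0 and 22 reads in controls and 3, 7 and 13 in mutants. Each mutant library thus held some Sox2 reads, and the only control library with any held the most of all 6. The ratio of mutant to control CPM was 1.01 (95% interval 0.538 to 1.90). Against controls 1 and 2 alone, the mutant level was 4.70 times a limit of 3 reads over those libraries. This value leaves out the counting error of the mutant reads. Sox2 lies within the long noncoding gene Sox2ot, which had 62 reads in control 3, 0 in the other controls and 5, 0 and 1 in mutants. Both genes are on the same strand, and how reads that fall on both were counted is not known here. Markers of the dermal papilla were mixed. The summed level of 8 of them, without Sox2 and the far more abundant Vcan, was 13.97, 10.9 and 27.5 CPM in controls and 28.6, 33.3 and 29.2 CPM in mutants. Hhip, also listed below as a Hedgehog component, was the largest part of this sum. It was at 5.93, 5.46 and 13.1 CPM in controls and 14.97, 14.97 and 12.8 CPM in mutants. With Sox2 and Vcan kept, the sum was 713, 785 and 508 CPM in controls and 624, 691 and 354 CPM in mutants. Corin, a papilla protease, had 8, 16 and 33 reads in controls and 4, 5 and 25 in mutants, and Rspo3, a secreted Wnt agonist, had 7, 7 and 13 against 2, 6 and 23. Both were highest in control 3 and mutant 3, as was Sox2, while Vcan was lowest there at 479 and 324 CPM. Only 2 of the 8, Crabp1 and Alpl, were higher in all mutants, where 12.1% of all tested genes were. Crabp1 had 8, 19 and 9 reads in controls and 45, 68 and 20 in mutants, lowest among mutants in mutant 3. Alpl had 4, 1 and 9 against 35, 28 and 35. The part of papilla cells in the Sox2 reads was not tested.

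Isl1 (chromosome 13, 116298281 to 116309689), a LIM homeobox factor that works with Sox2 upstream of Atoh1, had 3, 0 and 78 reads in controls and 6, 7 and 13 in mutants. The mutant libraries lay close together, above controls 1 and 2 and below control 3. The ratio of mutant to control CPM was 0.310 (0.191 to 0.487) with all controls and 5.31 (1.63 to 27.4) with controls 1 and 2. Leaving out control 3 therefore turned the direction. Peripheral neurons carry Isl1 and Piezo2 as well. The summed level of 6 other sensory neuron markers was 7.36, 4.14 and 11.9 CPM in controls and 4.22, 4.41 and 7.75 CPM in mutants, highest in control 3. Avil alone was at 8.97 CPM in control 3. Control 3 was the highest control for 4 of the 6, while Tubb3 was lowest there of all libraries. Of the 6 markers, the filament gene Prph was lower in all mutants (10, 18 and 22 reads against 1, 6 and 9). Nefm, a neurofilament gene outside that list, was higher in all mutants (9, 3 and 4 against 34, 14 and 22). The part of neurons in these reads was not tested.

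Gfi1 (chromosome 5, 107716657 to 107726036), a zinc-finger repressor that follows Atoh1 in sensory hair cells, had 1, 0 and 14 reads in controls and 24, 5 and 8 in mutants. Its groups overlapped through control 3, with a ratio of 2.38 (1.28 to 4.67), or 22.7 (3.82 to 919) against the single read of controls 1 and 2. Pou4f3 (chromosome 18, 42394539 to 42397249), a POU factor of hair cells and Merkel cells, had 0, 0 and 11 reads in controls and 6, 4 and 0 in mutants. These numbers were too small for a direction, with a ratio of 0.877 (0.334 to 2.28).

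None of Sox2, Isl1, Gfi1, Pou4f3 and Rab3c passed the filter on low counts, so what can be said of these 5 rests on raw reads. In an edgeR fit of all 20001 genes with a read, where 636 genes (3.18%) were called, none of these was called. Their adjusted p ran from 0.568 for Rab3c to 0.988 for Pou4f3. By DESeq2 none was called either, and Pou4f3 received no adjusted p there.

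Prox1 (chromosome 1, 190118035 to 190170714, minus strand) encodes a homeobox factor of lymphatic endothelium that is also present in Merkel cells. It had 66, 14 and 179 reads in controls and 205, 273 and 492 in mutants. On the CPM scale these were 4.50, 0.879 and 10.2 against 11.2, 16.3 and 32.9. The groups did not overlap, although control 3 lay close to mutant 1. The mean was 5.18 ± 4.68 CPM in controls and 20.1 ± 11.3 CPM in mutants, with a log2 fold change of 1.95 (SE 0.69, edgeR adjusted p = 0.204). It passed with the replicate number as a block (2.22, SE 0.47, adjusted p = 0.0207) and without control 3 (2.92, SE 0.66, adjusted p = 0.0317). Markers of lymphatic vessels varied as well: Lyve1 had 74, 11 and 220 reads in controls and 37, 45 and 184 in mutants, and Flt4 had 33, 2 and 18 against 7, 4 and 57. Control 2 had the fewest reads of Prox1, Lyve1 and Flt4, and in mutant 3 all 3 were high. Of 8 endothelial markers, 2 were higher and 0 lower in all mutants, where 12.1% of all tested genes were higher. The 2 were the vascular receptors Kdr (8, 2 and 9 reads against 26, 10 and 59) and Tie1 (1, 3 and 0 against 6, 19 and 33). Neither passed the filter on low counts. Pecam1 was at 5.38, 5.71 and 6.13 CPM in controls and 4.06, 4.35 and 9.16 CPM in mutants. Mean levels in controls and mutants were 1.70 and 1.85 CPM for Tek and 4.50 and 7.50 CPM for Cdh5. The summed level of the 8, which leave out Prox1, was 21.0, 18.1 and 34.7 CPM in controls and 25.7, 26.1 and 49.3 CPM in mutants, and the part of such cells in the Prox1 level was not tested. Prox1 also overlaps the antisense gene Prox1os, whose reads could not be told apart without strand.

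Insm1 (chromosome 2, 146221921 to 146225020), a zinc-finger factor of neuroendocrine cells, was the only one of the 10 that was lower in every mutant library than in any control. It had 38, 76 and 61 reads in controls and 12, 25 and 15 in mutants. The level was 3.61 ± 1.10 CPM in controls and 1.05 ± 0.418 CPM in mutants, a log2 fold change of -1.77 (SE 0.57). It was not called by edgeR (adjusted p = 0.154, or 0.0764 with the replicate block) and was called by DESeq2 (adjusted p = 0.0423). Over all alternatives its edgeR adjusted p reached 0.379, without mutant 1.

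Rab3c (chromosome 13, 110054187 to 110280996, minus strand), a small GTPase of synaptic vesicles, had 2, 3 and 67 reads in controls and 3, 13 and 0 in mutants. Only control 3 was high. The ratio of mutant to control CPM was 0.214 (0.116 to 0.372) with all controls and 1.96 (0.686 to 6.84) against controls 1 and 2, so its direction also turned with control 3.

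Cplx2 (chromosome 13, 54371349 to 54383917, plus strand) encodes a complexin, a small protein that binds the SNARE complex and controls vesicle fusion. It had 222, 212 and 355 reads in controls and 676, 858 and 551 in mutants. On the CPM scale these were 15.1, 13.3 and 20.1 against 37.1, 51.2 and 36.8. Every mutant library was well above every control library. The mean rose from 16.2 ± 3.55 to 41.7 ± 8.21 CPM (SD, n = 3 each, log2 fold change 1.36, SE 0.24, edgeR adjusted p = 0.0145). In fits that left out 1 library each, the difference ran on the log2 scale from 1.19 to 1.56, and the call was lost without control 1 (adjusted p = 0.0756), control 2 (0.0524) or mutant 2 (0.0748).

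Piezo2 (chromosome 18, 63010213 to 63387183, minus strand), the mechanically gated channel that makes Merkel cells and sensory neurons touch sensitive, had 268, 167 and 493 reads in controls and 459, 386 and 435 in mutants. By reads the mutants lay inside the control range, and by CPM mutant 3 (29.1) was just above control 3 (27.98). The level was 18.9 ± 8.77 CPM in controls and 25.8 ± 3.07 CPM in mutants (log2 fold change 0.44, SE 0.32, edgeR adjusted p = 0.601). The log2 fold change was 0.85 without control 3 and 0.15 without control 2, with no call in either fit.

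**Figure D2:**
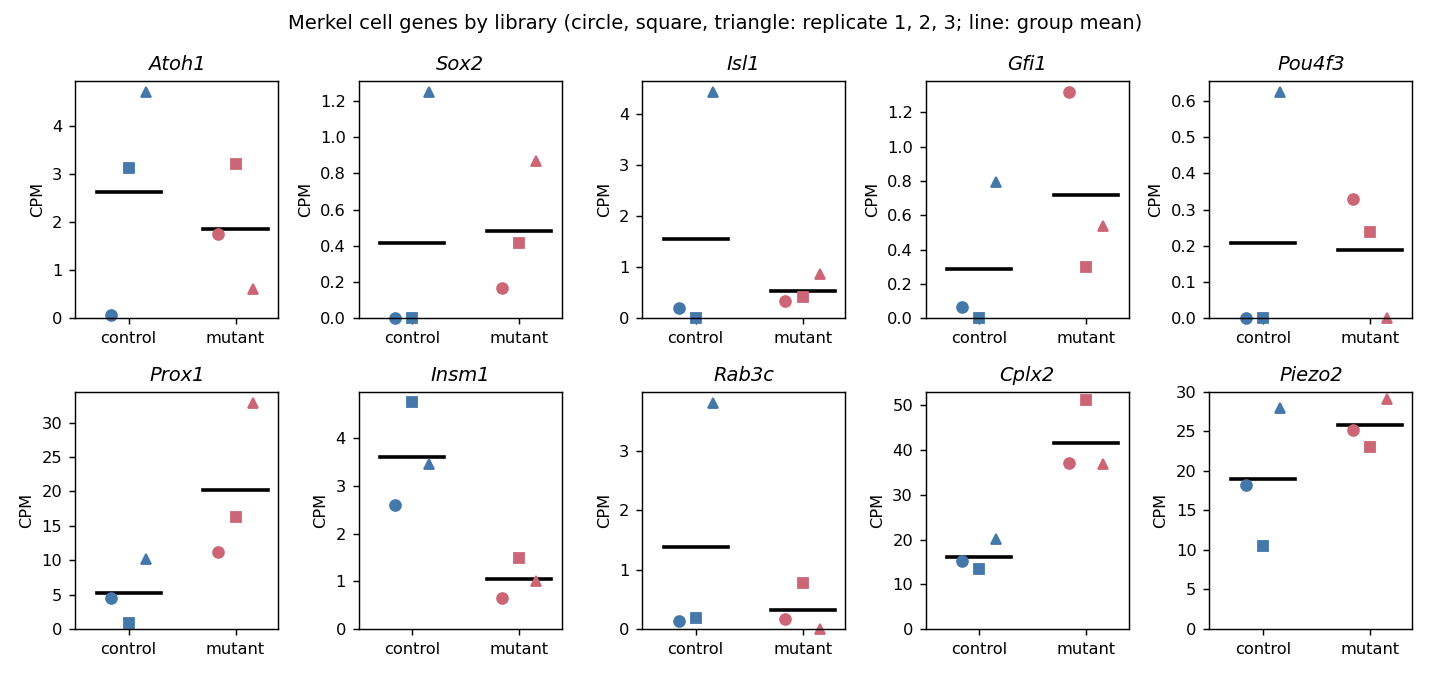
CPM of each of the 10 genes in the 3 control and 3 mutant libraries, on a linear axis from 0 that differs between panels. Points are libraries, the shape gives the replicate number and the line is the group mean. Cplx2 and Prox1 are higher and Insm1 is lower in all mutants, and the highest control point is control 3 in 9 of the 10 panels.

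Of the 5 members tested, 1 was called up against 2.59% of all tested genes, and none was called down against 0.404%. At an unadjusted p under 0.05 there were 2 higher and 1 lower, against 9.5% and 5.44% of all tested genes. DESeq2 called 1 higher and 1 lower, against 4.61% and 1.46% of the 15777 genes to which it gave an adjusted p. With the replicate block 2 were called up, where 6.09% of all genes were. The groups did not overlap for 2 tested members with higher and 1 with lower mutant levels, where 12.1% and 9.15% of all tested genes did so. The median log2 fold change of the 5 was 0.44, against -0.0033 over all tested genes. With so few genes, and 5 of the 10 left out by the filter, these shares describe the members and are not evidence on the list as a whole.

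Levels of different genes were compared per length, as CPM per kb of the union of exons in GENCODE M21. In controls, Cplx2 came first at 3.29 ± 0.719 CPM per kb, followed by Atoh1 at 1.24 ± 1.11, Insm1 at 1.16 ± 0.354, Piezo2 at 1.10 ± 0.511 and Prox1 at 0.617 ± 0.558 CPM per kb. Isl1, Sox2, Rab3c, Gfi1 and Pou4f3 followed between 0.390 and 0.0868 CPM per kb. In mutants, Cplx2 again led at 8.46 ± 1.67 CPM per kb, then Prox1 at 2.40 ± 1.35, Piezo2 at 1.501 ± 0.179, Atoh1 at 0.876 ± 0.619 and Insm1 at 0.339 ± 0.135 CPM per kb. In both groups only Cplx2 stood clear of the gene after it, and every other pair of neighbours in the order overlapped over its libraries. Rab3c was last in mutants at 0.0260 ± 0.0339 CPM per kb.

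**Figure D3:**
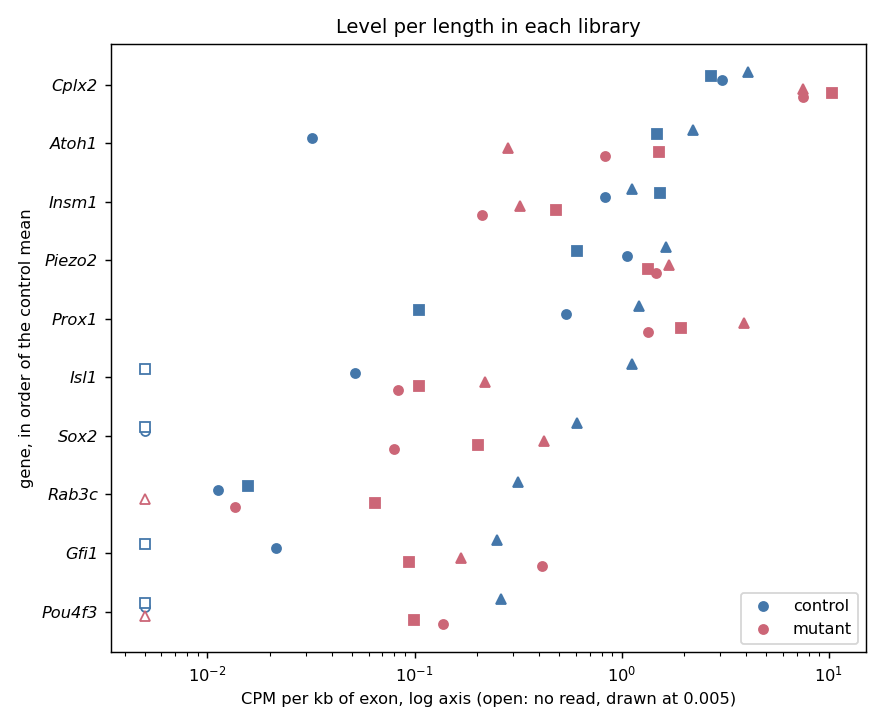
Level of each gene per kb of exon in every library, on a log axis, with genes in the order of the control mean. Colour gives the group and shape the replicate number as in the panels by gene, and open symbols mark libraries without a read, drawn at the left edge. Cplx2 is the highest gene in all 6 libraries, and Isl1, Sox2 and Rab3c have their highest point in control 3.

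The members did not vary together as 1 block across libraries. Control 3 was the only library in which all of Atoh1, Sox2, Isl1, Gfi1, Pou4f3 and Rab3c had more than 10 reads. Control 2 held 50 reads of Atoh1 and 76 of Insm1 but none of Sox2, Isl1, Gfi1 or Pou4f3. Mutant 3 had the most Prox1 of any library and no read of Pou4f3 or Rab3c. Control 3 was the highest control for 9 of the 10 members, for 25 of 44 other Merkel cell keratin, peptide and vesicle genes with control reads (56.8%) and for 38.05% of all 18949 symbols with control reads. Control 3 also had the highest summed level of 9 immune markers, at 81.0 CPM against 37.95 and 18.95 CPM in the other controls and 20.5 to 29.1 CPM in mutants. Much of that sum was Cd74, at 51.1 CPM in control 3. Ptprc, H2-Aa and Itgam were also highest in control 3. Tyrobp was lowest there among controls, Csf1r was highest in mutant 3, and Cd3e had 1 read, in control 1. The 6 reads of the Langerhans cell gene Cd207 in control 3 were the only ones in the series, and Cd3g had none anywhere. The part of immune cells in the Merkel cell reads was not tested.

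The 5 genes whose log2 CPM followed Atoh1 most closely over the 6 libraries, out of 14344 compared, were Scn4b (Pearson r = 0.971), Cisd1 (0.964), Abcb8 (0.963), Fut4 (0.962) and Gm4285 (0.96). These values are a description from 6 points that share depth and group, and none of the 5 was on the lists of Merkel cell genes. Among genes of those lists, r with Atoh1 was 0.331 for Krt8, 0.0668 for Krt18, 0.182 for Insm1, 0.20 for Cplx2, -0.0166 for Piezo2 and -0.0769 for Prox1.

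The wider Merkel cell repertoire was followed through 25 genes of keratins, peptides and neuronal markers, of which 14 were tested. Krt7 and Eno2 rose and none fell (5 higher and 0 lower at an unadjusted p under 0.05, 2 and 0 by DESeq2, 3 up with the replicate block), with a median log2 fold change of 0.45. Over all tested genes, edgeR called 2.59% up and 0.404% down, and 6.09% up with the replicate block. At an unadjusted edgeR p under 0.05, 9.5% were higher and 5.44% lower. DESeq2 called 4.61% of its genes higher and 1.46% lower. The gene gained under the block was Pcsk2, a prohormone convertase, with 234, 109 and 401 reads in controls and 599, 275 and 726 in mutants (log2 fold change 1.10, adjusted p = 0.301, and 1.13, SE 0.17, adjusted p = 0.00469 under the block). Krt7 (chromosome 15, 101411043 to 101430313), a keratin of simple epithelia, had 16, 8 and 19 reads in controls and 1022, 1190 and 1185 in mutants. Its level was 0.89 ± 0.336 CPM in controls and rose to 68.7 ± 11.8 CPM in mutants (log2 fold change 6.26, SE 0.33, edgeR adjusted p = 3.2e-05), and it was called in each of the 6 fits without 1 library. Eno2, the neuronal enolase, rose from 5.78 ± 1.53 to 21.3 ± 3.60 CPM (1.87, SE 0.28, adjusted p = 0.00761). Krt8 and Krt18, the keratin pair most used to mark Merkel cells, were not called. Krt8 had 8, 26 and 48 reads in controls and 4, 22 and 42 in mutants (adjusted p = 0.954), and Krt18 had 26, 19 and 141 against 42, 83 and 295 (adjusted p = 0.558, or 0.0864 under the block). The ratio of mutant to control CPM for Krt18 was 2.18 (1.83 to 2.60), or 5.72 (4.20 to 7.96) without control 3, and its CPM was higher in the mutant of each same-numbered pair.

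Krt20, the keratin most restricted to Merkel cells in skin, had 0, 6 and 77 reads in controls and 0, 0 and 5 in mutants. Its ratio of mutant to control CPM was 0.0581 (0.0184 to 0.141) with all controls and 0.51 (0.123 to 2.01) without control 3. The peptide gene Cck had 26, 6 and 19 reads in controls and 0, 3 and 1 in mutants, with no overlap between groups and a ratio of 0.0757 (0.0199 to 0.206). Neither passed the filter on low counts, and without the filter their edgeR adjusted p were 0.291 and 0.208. The granule protein genes Chga and Chgb were at 2.14 and 1.32 CPM in controls and 1.15 and 0.955 CPM in mutants and were not called (adjusted p = 0.595 and 0.895).

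Genes of vesicle release, the process in which Cplx2 and Rab3c act, were tested for 17 of 23 listed. Syt7, Sv2b and Cacna1d rose and none fell (6 higher and 0 lower at an unadjusted p under 0.05, 4 and 0 by DESeq2, 5 up with the replicate block), and the median log2 fold change was 0.14. The shares over all tested genes were 2.59% up and 0.404% down, and 6.09% up with the replicate block. At an unadjusted edgeR p under 0.05 they were 9.5% higher and 5.44% lower. DESeq2 called 4.61% of its genes higher and 1.46% lower. Syt7, a calcium sensor for fusion, had 106, 39 and 208 reads in controls and 710, 1140 and 449 in mutants. Its level rose from 7.16 ± 4.68 to 45.6 ± 19.9 CPM (2.67, SE 0.51, edgeR adjusted p = 0.0218). Sv2b, a synaptic vesicle glycoprotein, rose from 8.46 ± 2.71 to 29.6 ± 5.61 CPM (1.80, SE 0.28, adjusted p = 0.00896). Cacna1d, the pore of an L-type calcium channel, rose from 3.86 ± 0.951 to 16.5 ± 3.38 CPM (2.09, SE 0.31, adjusted p = 0.00761). Syt7 lost its call without control 1 (adjusted p = 0.096), mutant 1 (0.0567) or mutant 2 (0.0906), and Sv2b without control 1 (0.0523). Krt7, Syt7, Sv2b and Cacna1d each overlap another gene model on the opposite strand, and their counts may hold reads of it.

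Other vesicle genes were higher in all mutants without passing the test. The groups did not overlap, with mutants higher, for 6 of the 17 vesicle release genes tested, against 12.1% of all tested genes. Rims2, an active zone scaffold, had 5, 0 and 26 reads in controls and 119, 284 and 47 in mutants (edgeR adjusted p = 0.0829), and it was called without the filter on low counts (0.0126) and without control 3 (0.013). Cacna1b, an N-type calcium channel, had 10, 0 and 15 against 86, 49 and 79 (adjusted p = 0.122, against 0.0341 with the replicate block and 0.00277 by DESeq2). The vesicle SNARE gene Vamp2 was at 74.8 ± 16.1 and 112 ± 0.793 CPM (adjusted p = 0.148, or 0.0311 under the block). Snap25 and Syt1, a membrane SNARE and the main fast calcium sensor, behaved otherwise. Snap25 had 8, 0 and 85 reads in controls and 25, 48 and 8 in mutants, and Syt1 had 5, 0 and 53 against 11, 1 and 5, so that control 3 was the highest library for both.

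**Figure D4:**
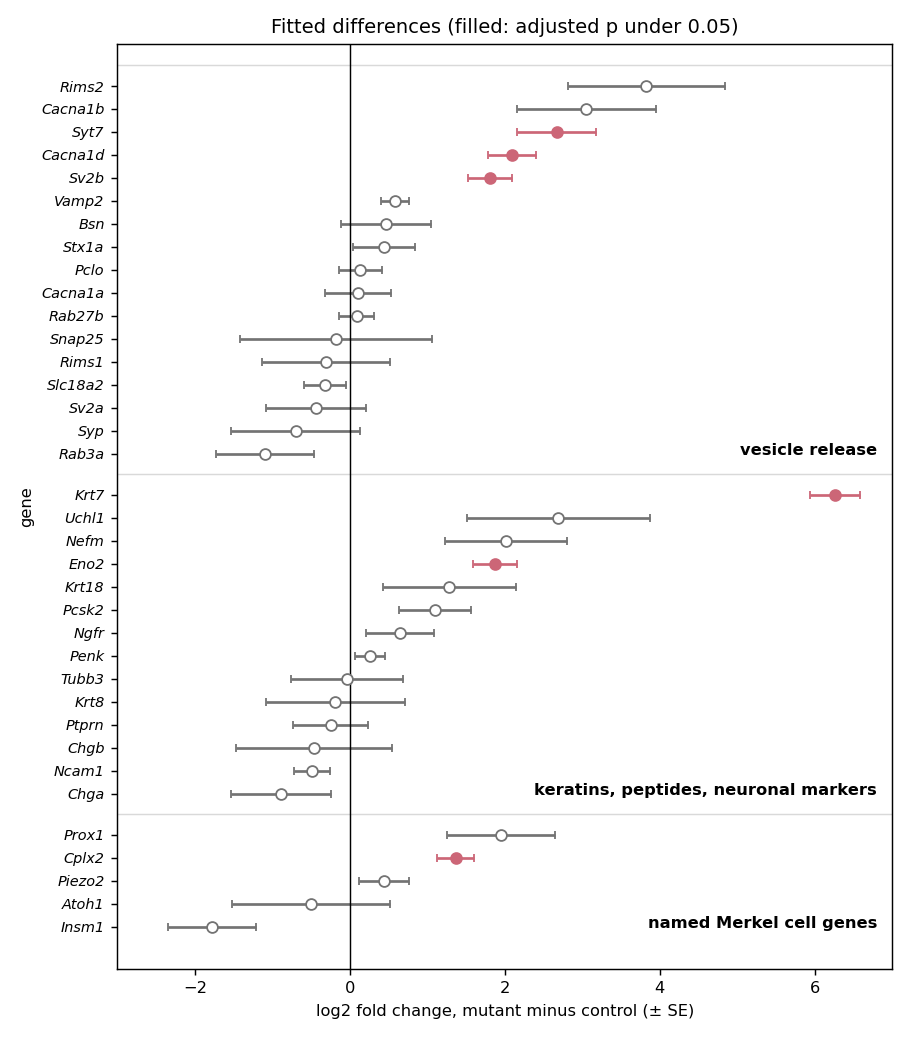
Fitted log2 fold change (mutant minus control, ± SE) of the tested members and of the tested genes of the keratin, peptide and neuronal list and the vesicle release list. Filled points passed the test. Krt7 lies far to the right at 6.26, and the called genes Cplx2, Eno2, Sv2b, Cacna1d and Syt7 lie between 1.36 and 2.67.

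Close relatives of the members were read beside them, since reads of similar genes may be split. Of 8 tested relatives (18 listed), Rab3b rose and none fell (1 higher and 2 lower at an unadjusted p under 0.05, 1 and 0 by DESeq2), with a median log2 fold change of -0.18. Of all tested genes, edgeR called 2.59% up and 0.404% down, and 9.5% were higher and 5.44% lower at an unadjusted p under 0.05. DESeq2 called 4.61% of its genes higher and 1.46% lower. Rab3b had 63, 80 and 68 reads in controls and 240, 253 and 159 in mutants, a rise from 4.39 ± 0.586 to 12.96 ± 2.23 CPM (1.56, SE 0.30, edgeR adjusted p = 0.0218). It lost its call without control 1 (adjusted p = 0.0908), mutant 1 (0.0907) or mutant 2 (0.126). The other vesicle GTPases of this family were not called, Rab3d at 48.98 and 49.3 CPM and Rab3a at 3.54 and 1.65 CPM. Piezo1, the related channel of many tissues, was at 95.9 ± 42.4 and 149 ± 58.2 CPM and was not called (adjusted p = 0.432), except under the block (0.00642). Sox21, a relative of Sox2 of the hair shaft cuticle, was at 129 ± 47.4 and 73.5 ± 32.6 CPM and was not called (adjusted p = 0.316), except as lower under the block (0.00269). Atoh8 was at 4.18 and 1.42 CPM, Prox2 at 4.52 and 3.47 CPM and Pou4f1 at 0.39 and 1.05 CPM, none of them called.

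Signals that induce Merkel cells, among them Hedgehog, ectodysplasin, FGF and Wnt components, were tested for all 17 listed genes. None was called (edgeR, with 0 higher and 2 lower at an unadjusted p under 0.05, and 0 and 2 by DESeq2), and the median log2 fold change was -0.15. Of all tested genes 5.44% were lower at an unadjusted edgeR p under 0.05, and DESeq2 called 1.46% of its genes lower. Those with the smallest p were Sostdc1, Fgf20, Hhip and Gli3. Sostdc1, a secreted antagonist of BMP and Wnt signals, was at 345 ± 130 and 141 ± 57.4 CPM, and its reads in every mutant library were below those in any control (adjusted p = 0.0805, but 0.011 without the filter on low counts and 0.00203 by DESeq2). Fgf20, a placode ligand, had 73, 55 and 46 reads in controls and 26, 18 and 4 in mutants (adjusted p = 0.182, and 0.0441 by DESeq2). Gli3 was at 237 and 187 CPM and Hhip at 8.17 and 14.3 CPM. With the replicate block Sostdc1, Shh and Edar were called lower, against 3.29% of all genes. Of the touch dome keratinocyte genes Krt17, Cd200 and Tnc none was called over all genes (edgeR, with 2 higher at an unadjusted p under 0.05, and 2 by DESeq2). The shares for all genes were 9.5% higher at an unadjusted edgeR p under 0.05 and 4.61% higher by DESeq2. Krt17 was at 208 and 348 CPM (adjusted p = 0.0766, or 0.00366 under the block) and Tnc at 597 and 1344 CPM (adjusted p = 0.0695, or 0.000213 under the block).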

How the data were processed

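Each of the 6 deposited files holds whole-number read counts per gene symbol for 1 library. The authors deposited them unnormalized, judging by the values. Per the submitters' processing notes, mm10 was the build and the tools were HTSeq 0.6.1, TopHat2 2.0.13, DESeq2 1.6.3 and Cufflinks 2.2.1, with no role or order given. Which strand setting and which annotation the authors used is not given in the sources here. Per the labels' protocols, 10 ng of RNA was amplified before 100 ng of sheared cDNA entered each library, read as single reads of 100 nucleotides.

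Counts were tested with edgeR 4.0.16 in R 4.3.3 (filterByExpr, TMM factors, group as the only term, quasi-likelihood F test, two-sided), after a check on simulated counts. The SE comes from the F statistic. The filter removed 0.0971% of counts. Where a gene was left out, reads are given with the ratio of summed CPM and an exact conditional binomial 95% interval. Alternatives were DESeq2 1.42.0, other scalings, other filters, the replicate block and leaving out each library. Coordinates and exon lengths are from GENCODE M21 on GRCm38, the build that mm10 names, which may not be the authors' annotation. No 2 libraries agreed within sampling noise (lowest chi-square over its degrees of freedom among 15 pairs: 26.4).

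The members and lists were chosen with earlier results of these data known. Named genes are all members, Ring1 and Rnf2, called genes of each list or else the 4 with the smallest p, relatives of at least 1 CPM, and the 5 genes most like Atoh1. Further genes, such as Krt8, Krt18, Krt20, Cck, Chga, Chgb, Rims2, Cacna1b, Vamp2, Snap25, Syt1, Krt17, Tnc, Lyve1, Flt4, Kdr, Tie1, Corin, Rspo3, Vcan, Prph, Nefm and Pcsk2, were named after their values were seen. Same-numbered libraries deviated from their group means together, with correlations of 0.239, 0.267 and 0.468 against at most 0.174 for other pairs. All 3 exceed the minimum of 0.1, but so does control 1 with mutant 2, at 0.174, so this minimum does not single out the same-numbered pairs. The pairing comes from the same counts that the block was used to test. The labels do not say what a number marks, and few matchings of 3 with 3 exist.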

Additional observations from a re-analysis of the deposited data

How the results depend on the processing

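Few reads limit what can be said of 5 of the 10 genes, whose group sums of 10 to 81 reads leave directions that 1 library decides for all but Gfi1. The number of genes called in all, 430, became 959 with DESeq2, 1345 with the replicate block, and 163 to 664 without 1 library. Members called higher, 1, became 2 with the replicate block (6.09% of all genes) and 0 to 2 without 1 library. The 2 came without control 3, where 664 of 14803 genes were called in either direction. It was 0 without control 1 (193 of 14793 genes called), control 2 (277 of 14867) or mutant 2 (163 of 14759). Members called lower, 0, became 1 with DESeq2 (Insm1) and were 0 in all 6 fits without 1 library. On the keratin and peptide, vesicle release, relatives and inducing signal lists together, 6 of 55 tested genes were called higher, against 2.59% of all tested genes. The 6 became 10 with the replicate block (6.09% of all genes) and 3 to 9 without 1 library. The 9 came without control 3 and the 3 without control 1, fits that called 664 and 193 genes in all. Genes of these lists called lower, 0 (0.404% of all tested genes), became 1 without a filter and 2 with DESeq2 (1.46%). They became 4 with the block (3.29%) and 0 to 1 without 1 library, the 1 without control 3. Atoh1 changed sign with the block, to 0.027, and without control 3, its log2 fold change running from -1.15 to 0.21 without 1 library. The cause of these shifts was not tested. Ring1, Krt7, Eno2 and Cacna1d kept their calls in all 12 alternatives. Prox1 kept its sign in all 12, from 1.39 to 2.92. In fits without 1 library 1 group has 2 samples, and some of the 5 low genes pass the filter there and none was called. The replicate block changed no other call among the members.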
